A study of Mus musculus with 6 samples.

Results

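The ATF4 stress response was examined in whole testes of control and knockout mice at postnatal day 15, through 10 genes chosen by name: Atf4, Atf5, Ddit3, Trib3, Asns, Chac1, Sesn2, Slc7a11, Psat1 and Phgdh. Each had 1 measured transcript cluster (a set of probes that together read 1 transcribed region) that carried its symbol alone, so the 10 genes are 10 of 21789 tested clusters. There were 3 control and 3 knockout testis samples, each read on 1 Affymetrix mouse gene array, and values are on a log2 scale. Both groups are mice of 1 age that differ by genotype. The labels state neither a strain, nor how or in which cells the gene was removed, nor what alleles the control mice carry. They do not say whether replicates are separate mice. The p-values therefore describe the variation among these arrays, part or all of which may be technical.

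ATF4 is a basic leucine zipper transcription factor at the end of the integrated stress response. Kinases that sense amino acid shortage, unfolded protein, heme deficiency or double-stranded RNA phosphorylate the initiation factor eIF2. This lowers general translation while upstream reading frames let the Atf4 message be translated, so ATF4 protein can increase with no change in its mRNA, and these arrays measure mRNA only. ATF4 then binds composite C/EBP-ATF elements and activates genes of amino acid synthesis and uptake, glutathione metabolism and feedback control. Many of these genes also have a basal level in growing cells, and the testis holds germ cells and somatic cells that need serine, asparagine and cysteine.

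Chac1 stood highest among the 10 genes in its difference, and Atf4 followed. Chac1 was 0.38 higher in the knockout on the log2 scale (SE 0.048, 1.30-fold) and Atf4 0.22 higher (SE 0.061, 1.17-fold), each with all 3 knockout values above all 3 control values. Neither passed the threshold of an adjusted p of 0.05 in limma, with adjusted p = 0.188 for Chac1 and 0.347 for Atf4. Of the 10 genes, 0 passed over all tested clusters, where 3 of 21789 did (0.0138%). At an unadjusted p under 0.05 there were 2 of 10 on the higher side, against 4.10% of all clusters, and 0 on the lower side, against 6.45%. The 10 genes were chosen with earlier results of these data known, so counts over them are a description only.

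The promoter stretches with a composite element are shown because ATF4 acts through this sequence. In the 250 bases before each start of a gene, taken from RefSeq's table of mouse promoters (GRCm38.p6), all 10 genes had at least 1 window. The 8-letter motif TGATGNAA, searched on both strands, was present in 3 of them, Chac1, Asns and Slc7a11. Of all genes in the table, 3.91% had it. Capitals mark the motif or its reverse complement, and each line runs 5′ to 3′ in the direction of the gene.
Chac1: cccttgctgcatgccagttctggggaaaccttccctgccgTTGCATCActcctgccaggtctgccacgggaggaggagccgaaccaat
Asns: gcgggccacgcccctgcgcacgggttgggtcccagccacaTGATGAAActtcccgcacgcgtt
Slc7a11: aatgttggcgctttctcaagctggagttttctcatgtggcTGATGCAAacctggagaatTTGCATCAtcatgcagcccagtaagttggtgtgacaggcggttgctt

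The Chac1 stretch lies at chr2:119351009-119351096 on the plus strand, with its element 193 to 186 bases before the start, in the orientation opposite to the gene. That of Asns lies at chr6:7693210-7693272 on the minus strand, with its element 23 to 16 bases before the start. Slc7a11, at chr3:50443614-50443719 on the minus strand, had 2 elements, the one nearer to the start, 47 to 40 bases before it, being inverted with respect to the other, 66 to 59 bases before it. The 9-letter motif TGATGNAAT was found in 0 of the 10 genes, whose windows numbered 12 (0.91% of all genes had it), and the cAMP response element TGACGTCA in 0 (1.77%). The 5-letter core TGATG was in the same 3 of the 10 genes, against 38% of all genes. A match describes the letters only, and binding was not measured. The 3 genes with the motif did not share a pattern: Chac1 had the largest difference of the 10, Asns a small one, and the knockout mean of Slc7a11 lay below its control mean.

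Among the transcription factors, Atf4 (cluster 10425364, chromosome 15) read 9.18, 9.02 and 9.04 in the control arrays and 9.34, 9.35 and 9.22 in the knockout arrays. The groups did not overlap, but only 0.04 separated control replicate 1, the highest control, from knockout replicate 3, the lowest knockout. The means were 9.08 ± 0.087 and 9.30 ± 0.072 (SD, n = 3), and the 95% interval of the difference, not adjusted for the number of clusters, ran from 0.08 to 0.37. With any 1 array left out, its difference ranged from 0.19 to 0.27.

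Atf5, a related factor that is itself under ATF4 control, read 8.63, 8.65 and 8.63 in control and 8.69, 8.68 and 8.66 in knockout arrays. All knockout values were above all control values, by a gap of 0.01, which is the step in which the values were deposited, and the difference was 0.04 (SE 0.038, adjusted p = 0.755). With each array centred on its median, the groups of Atf5 overlapped. Ddit3, which encodes CHOP, the factor of stress-induced cell death, read 8.75, 8.87 and 8.86 in control and 8.91, 8.95 and 8.80 in knockout arrays. Knockout replicate 3 lay among the controls, and the difference was 0.06 (SE 0.057, 95% interval -0.07 to 0.19, adjusted p = 0.758).

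**Figure D1:**
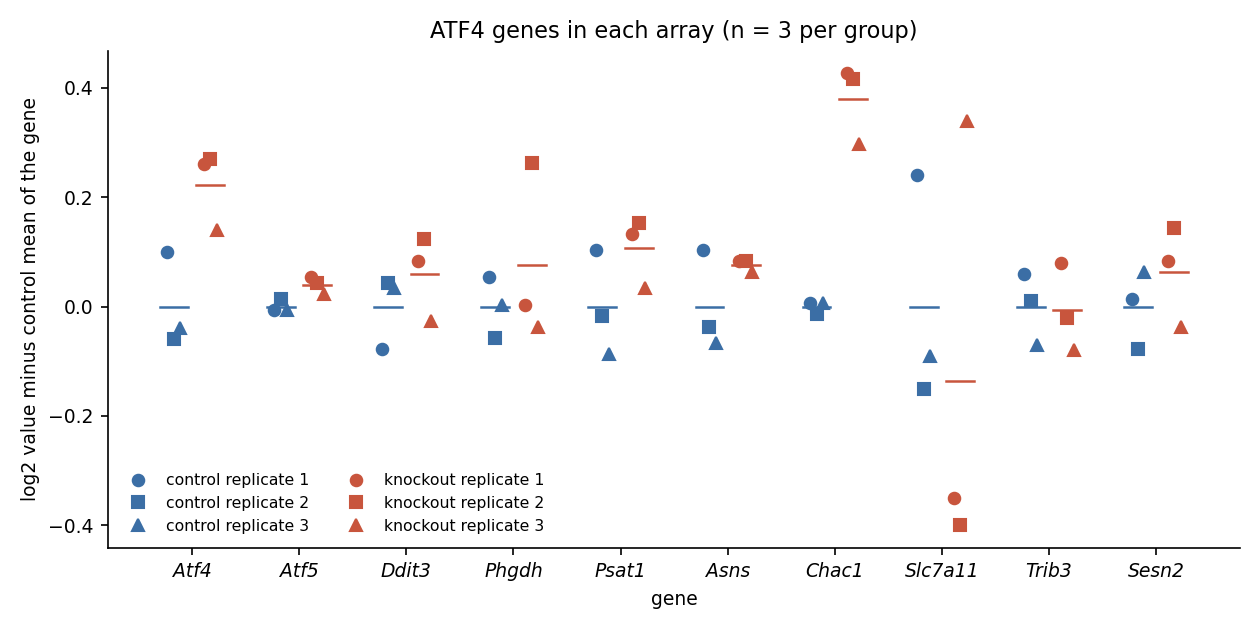
Values of the 10 genes in each of the 6 arrays, as the log2 value minus that gene's control mean (vertical axis), by gene (horizontal axis). Blue marks are control and red marks knockout arrays, shapes give the replicate number, and short lines are group means. Chac1 and Atf4 have all knockout marks above all control marks, and in Slc7a11 knockout replicate 3 sits at 0.34 while the other knockout arrays sit at -0.35 and -0.40.

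The enzymes of serine and asparagine synthesis differed by amounts within the spread of the arrays. Phgdh, the first enzyme of serine synthesis (cluster 10500529, chromosome 3), read 9.95, 9.84 and 9.90 in control and 9.90, 10.16 and 9.86 in knockout arrays. Its difference of 0.08 (SE 0.083, adjusted p = 0.788) rested on knockout replicate 2, and without that array it was -0.017. Another cluster lists Phgdh together with a second gene and was left out, and how far its probes share sequence with those of the Phgdh cluster was not tested.

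Psat1, the next enzyme of that pathway (cluster 10466410, chromosome 19), read 11.70, 11.58 and 11.51 in control and 11.73, 11.75 and 11.63 in knockout arrays. Its difference was 0.11 (SE 0.062, 95% interval -0.04 to 0.25, adjusted p = 0.587). Asns, which makes asparagine (cluster 10543067, chromosome 6), read 12.40, 12.26 and 12.23 in control and 12.38, 12.38 and 12.36 in knockout arrays. The knockout arrays of Asns lay within 0.02 of each other and the control arrays within 0.17, and the difference was 0.08 (SE 0.054, 95% interval -0.05 to 0.20, adjusted p = 0.668). In both genes control replicate 1 was the control that overlapped the knockout arrays. Without it the differences were 0.16 for Psat1 (unadjusted p = 0.0332, adjusted p = 0.432) and 0.13 for Asns (unadjusted p = 0.0274, adjusted p = 0.401).

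The genes of glutathione handling did not share a direction of difference. Chac1, which breaks down glutathione (cluster 10474972, chromosome 2), read 7.77, 7.75 and 7.77 in control and 8.19, 8.18 and 8.06 in knockout arrays. The control values lay within 0.02 of each other, and a gap of 0.29 separated the highest control from the lowest knockout value. The means were 7.76 ± 0.012 and 8.14 ± 0.072 (SD, n = 3), with a 95% interval of the difference, not adjusted for the number of clusters, of 0.27 to 0.49. It had the eighth smallest p of all clusters (unadjusted p = 8.65e-05), and with any 1 array left out its difference ranged from 0.36 to 0.42.

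Slc7a11, the cystine transporter that feeds glutathione synthesis (cluster 10498024, chromosome 3), read 7.28, 6.89 and 6.95 in control and 6.69, 6.64 and 7.38 in knockout arrays. Knockout replicate 3 was the highest of all 6 arrays and knockout replicates 1 and 2 were the lowest, a range of 0.74 within the knockout group. The difference was -0.14 (SE 0.20, 95% interval -0.61 to 0.34, adjusted p = 0.859). Without knockout replicate 3 it was -0.375 (unadjusted p = 0.0184, adjusted p = 0.480), and without knockout replicate 2 it was -0.005 (adjusted p = 0.994).

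The regulators of growth signalling differed little. Trib3, a pseudokinase that restrains AKT and is induced by ATF4 and CHOP, read 8.00, 7.95 and 7.87 in control and 8.02, 7.92 and 7.86 in knockout arrays. Its difference was -0.0067 (SE 0.058, 95% interval -0.14 to 0.13, adjusted p = 0.980), and the groups overlapped throughout. Sesn2, a leucine sensor that restrains mTORC1, read 10.93, 10.84 and 10.98 in control and 11.00, 11.06 and 10.88 in knockout arrays. The difference was 0.06 (SE 0.062, adjusted p = 0.764), and knockout replicate 3 lay among the controls.

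**Figure D2:**
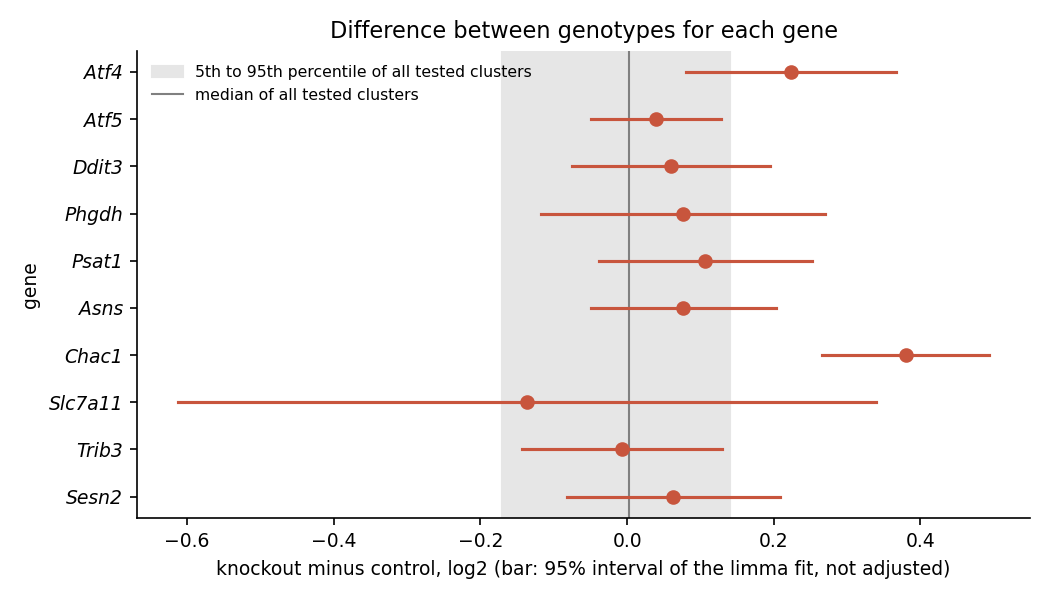
Knockout minus control difference of each gene on the log2 scale (horizontal axis), with its 95% interval from the limma fit (bars), by gene (vertical axis). The grey band runs from -0.17 to 0.14, the 5th to 95th percentile of all tested clusters. The points of Chac1 and Atf4 lie to the right of the band, and the interval of Slc7a11 is the widest.

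Counted over the 10 genes, 8 had a higher mean in the knockout, against 51.3% of all tested clusters. The exceptions were Trib3 and Slc7a11. The median difference of the 10 genes was 0.07, against 0.0033 over all clusters. In 3 of 10 genes (Atf4, Atf5 and Chac1) all knockout values were above all control values, against 6.73% of all clusters, and in 0 they were all below, against 8.60%. The count of 3 was 5 without control replicate 1, where Asns and Psat1 joined, and 6 without knockout replicate 3, where Ddit3, Sesn2 and Psat1 joined. With fewer arrays groups separate more often, and the share of all clusters was then 12.7% and 12.5%. The count stayed at 3, with Atf4, Atf5 and Chac1, whichever other array was left out, against 10.5% to 13.1% of all clusters. The count at an unadjusted p under 0.05 on the higher side was 4 without control replicate 1, against 3.92% of all clusters. The median was 0.03 without knockout replicate 2 and 0.11 without knockout replicate 3.

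Both of these arrays stood at an edge of their group in these genes. Knockout replicate 3 was the lowest of the 3 knockout arrays in 9 of the 10 genes, where it was the lowest in 34.1% of all clusters. The exception was Slc7a11, in which it was the highest. Control replicate 1 was the highest control array in 6 of the 10 genes (Atf4, Phgdh, Psat1, Asns, Slc7a11 and Trib3), against 35.2% of all clusters.

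The average levels of several lists of cell markers also differed with the genotype or in these arrays, though no single marker passed the adjusted threshold. Whole testis RNA cannot tell fewer cells of a type from less RNA per cell. Relative to the control mean, 16 pachytene spermatocyte markers averaged -0.28, 0.19 and 0.09 in control and -0.45, -0.41 and -0.22 in knockout arrays. Control replicate 1 was thus the lowest control in these markers, and knockout replicate 3 the highest knockout. The mean of the 10 ATF4 genes on the same scale was 0.06, -0.03 and -0.03 in control and 0.09, 0.11 and 0.07 in knockout arrays, so that the control array with the lowest pachytene average had the highest mean of the ATF4 genes in its group. In the knockout group this did not hold, as replicate 1 had the lowest pachytene average and replicate 2 the highest mean of the ATF4 genes. At the other end, knockout replicate 3 had both the highest pachytene average and the lowest mean of the ATF4 genes in its group. Whether these averages are related was not tested.

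Among the somatic lists, the Sertoli cell, macrophage and Leydig cell markers had positive medians (0.07, 0.12 and 0.22), while those of peritubular myoid cells (3 of 7 with a higher knockout mean, median -0.01) and endothelial cells (4 of 8, median 0.01) lay near 0. The 15 measured Sertoli cell markers averaged 0.02, -0.04 and 0.01 in control and 0.07, 0.10 and 0.04 in knockout arrays. The 10 macrophage markers averaged -0.02, -0.07 and 0.09 against 0.11, 0.16 and 0.12. The 7 measured Leydig cell markers averaged 0.15, -0.01 and -0.14 against 0.11, 0.15 and 0.24. Of these marker lists 0 members passed an adjusted p of 0.05, with 1 of 16 pachytene, 13 of 15 Sertoli, 6 of 7 Leydig and 10 of 10 macrophage markers above the control mean. At an unadjusted p under 0.05, 9 of the 16 pachytene markers were lower, against 6.45% of all clusters. Their part in the differences of Atf4 and Chac1 was not tested. Single Leydig cell markers had differences near that of Chac1: Star, of cholesterol import, was 0.45 higher and the steroid enzyme Cyp17a1 0.39 higher, both with overlapping groups, and the steroid enzyme Cyp11a1 was 0.37 higher without overlap. The steroid enzyme Hsd17b3 went the other way, 0.43 lower without overlap (SE 0.091). Its adjusted p of 0.292 in limma was the smallest of the Leydig cell list. Outside the Leydig cell list, Gfra1 of the spermatogonia list was 0.39 higher without overlap (SE 0.0615, adjusted p = 0.242 in limma). Of the 16 spermatogonia markers 4 were above and 12 below the control mean. At an unadjusted p under 0.05, 3 of them were higher (against 4.10% of all clusters) and 6 lower (against 6.45%). The Leydig cell and spermatogonia markers named here were chosen after their values were seen.

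**Figure D3:**
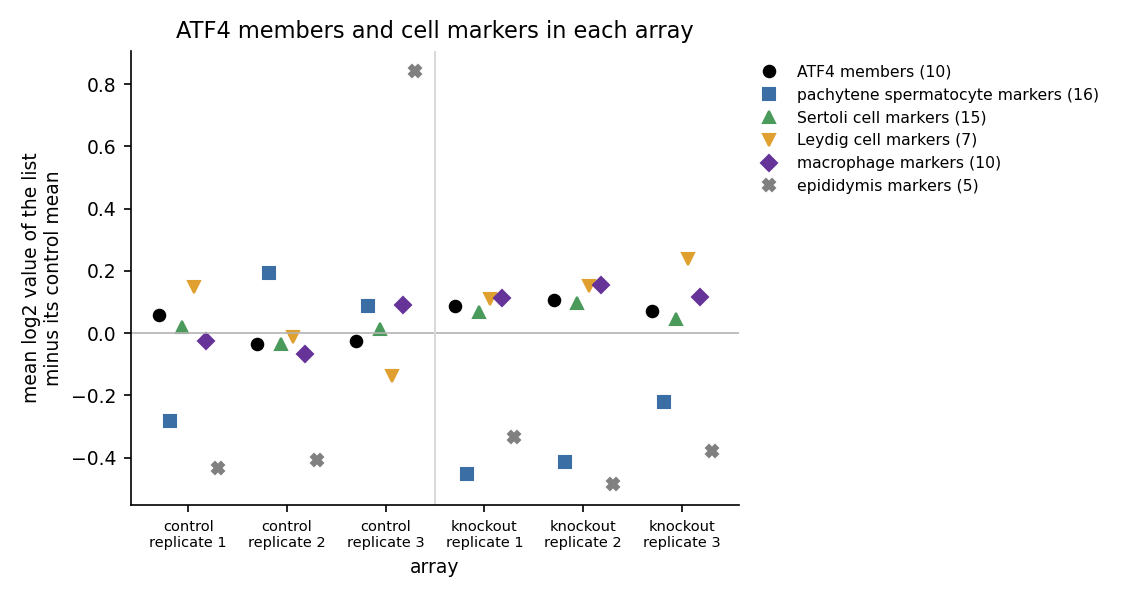
Mean of the 10 ATF4 genes and of 5 lists of cell markers in each array, as the mean log2 value minus the list's control mean (vertical axis), by array (horizontal axis), with the number of genes in brackets. Pachytene markers are low in control replicate 1 and in all knockout arrays, and epididymis markers are high in control replicate 3 (0.84).

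The tissue label was checked against defining markers. The Sertoli cell factor Wt1 read 11.60 to 11.71 and the meiotic axis gene Sycp3 read 11.59 to 11.75 over the 6 arrays. Spink8, an epididymis gene, read 9.31 in control replicate 3 and 5.38 to 5.60 in the other arrays, and 4 of 5 measured epididymis markers were highest in that array. The part of this signal in the results was not tested. Without control replicate 3 the difference was 0.38 for Chac1 and 0.20 for Atf4, with adjusted p-values of 0.277 and 0.421.

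Upstream of ATF4, the eIF2 kinases showed no common direction. Eif2ak2, the kinase PKR that senses double-stranded RNA, read 8.50, 8.50 and 8.58 in control and 8.74, 8.78 and 8.61 in knockout arrays, 0.18 higher and without overlap (SE 0.057, adjusted p = 0.376). Eif2ak1, the heme-regulated kinase, was 0.08 lower without overlap (SE 0.049, adjusted p = 0.615). Eif2ak3, the kinase PERK of the endoplasmic reticulum, was 0.08 higher (SE 0.063) and Eif2ak4, the amino acid sensor GCN2, 0.10 higher (SE 0.068), both with overlapping groups. This list held the kinases, eIF2 and eIF2B subunits, phosphatase regulators, and Eif2a, Gcn1, Impact, Dele1 and Oma1. Of its 19 measured genes 13 had a higher and 6 a lower knockout mean, and the median difference was 0.03. Eif2a, Gcn1, Impact, Dele1 and Oma1 were all on the higher side, by 0.07, 0.02, 0.06, 0.0033 and 0.09. The eIF2 subunit Eif2s1 was not among the measured genes. Centring each array on its median moves every difference by -0.005, so such counts depend on centring for genes this close to 0. Eif2b5, a subunit of the eIF2B exchange factor, was 0.11 lower (SE 0.046, adjusted p = 0.476), and 1 of the clusters of Ppp1r15b, a regulatory subunit of the eIF2 phosphatase, was 0.11 higher (SE 0.048, adjusted p = 0.493). The other cluster of Ppp1r15b, which had the higher mean, was 0.08 higher with overlapping groups (SE 0.049, adjusted p = 0.633).

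The leucine zipper partners of ATF4 were led by Fos. Fos, an immediate early factor, was 0.23 higher without overlap (SE 0.085, adjusted p = 0.412), its control arrays running from 7.22 to 7.57 and its knockout arrays from 7.62 to 7.66. Cebpa was 0.07 higher (SE 0.047) and Cebpg, which pairs with ATF4 on its elements, 0.07 lower (SE 0.046). Of 13 measured genes 9 had a higher and 3 a lower knockout mean (median 0.03).

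Other known targets of ATF4 were led by an amino acid transporter. Slc7a3, which takes up cationic amino acids, read 7.04, 7.07 and 7.20 in control and 7.60, 7.51 and 7.51 in knockout arrays. It was 0.44 higher without overlap (SE 0.057, adjusted p = 0.188), and this was the one gene beside the 10 with a difference as large as that of Chac1 in the pathway lists. Slc1a4, a transporter of small neutral amino acids, was 0.16 higher (SE 0.064) and Slc6a9, a glycine transporter, 0.14 higher (SE 0.081). Of 8 transporters 6 were above and 0 below the control mean.

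Amino acid and one-carbon synthesis showed smaller differences. Mthfd1l, a mitochondrial folate enzyme, was 0.20 higher with overlapping groups (SE 0.081, adjusted p = 0.440), Aldh18a1, of proline synthesis, 0.15 higher (SE 0.11) and Gpt2, an alanine transaminase, 0.07 higher (SE 0.051). Psph, which completes serine synthesis after Phgdh and Psat1, differed by -0.0033 (SE 0.045), and Shmt2, which passes the carbon of serine to folate, by -0.03 (SE 0.055). Of 11 measured genes of this list 7 were above and 4 below the control mean.

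Among aminoacyl-tRNA synthetases, which charge transfer RNAs, Iars was 0.15 higher in the cluster with the higher mean (SE 0.055) and 0.06 higher in its other cluster. Lars was 0.14 higher (SE 0.063) and Tars 0.11 lower (SE 0.059), and 9 of 11 measured genes had a higher knockout mean (median 0.02). Among other stress outputs, Stc2, a secreted glycoprotein, was 0.16 higher (SE 0.059), Ddr2, a collagen receptor, 0.11 higher (SE 0.047) and Herpud1, of protein degradation at the endoplasmic reticulum, 0.10 higher (SE 0.046), with 9 of 14 genes above the control mean.

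Over the 4 lists of targets together, 31 of 44 measured genes (70.5%) had a higher and 11 a lower knockout mean, against 51.3% of all clusters with a higher one, and the median difference was 0.05. At an unadjusted p under 0.05, 5 were higher (11.4%, against 4.10% of all clusters) and 0 lower (6.45% of all clusters), and 0 passed the adjusted threshold, the smallest adjusted p being 0.188. In 3 of 44 (6.82%) all knockout values were above all control values, close to the 6.73% of all clusters. The lists were chosen with earlier results of these data known, so these shares are a description only.

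The lists set beside the ATF4 targets for comparison lay around 0, but were not set apart from every target list. The aminoacyl-tRNA synthetase targets had a median of 0.0233 and the chaperone arm one of 0.0183. The chaperone arm of the unfolded protein response had 6 genes with a higher and 6 with a lower knockout mean and a median of 0.02, with Dnajc3 at 0.07, Sdf2l1 at -0.07 and the chaperone Hspa5 at 0.05 (SE 0.047, 0.059 and 0.041). Both clusters of Dnajc3 held the same values. Glutathione and NRF2 genes had 4 above and 6 below and a median of -0.03. Gclc, the catalytic subunit of glutathione synthesis, was 0.11 lower without overlap (SE 0.048, adjusted p = 0.488), its partner Gclm was 0.08 lower (SE 0.049) and Hmox1, which degrades heme, 0.08 lower (SE 0.065).

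Relatives of the 10 genes differed by at most 0.10. Chac2, the paralog of Chac1, was 0.06 higher (SE 0.082), with knockout replicate 2 at 8.02 and all other arrays between 7.72 and 7.78. Trib2 was 0.10 higher without overlap (SE 0.046, adjusted p = 0.487) and Trib1 0.03 higher (SE 0.076). Sesn1 was 0.09 higher (SE 0.061) and Sesn3 0.06 lower (SE 0.044), and Slc7a10, a relative of Slc7a11, was 0.06 lower without overlap (SE 0.041).

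**Figure D4:**
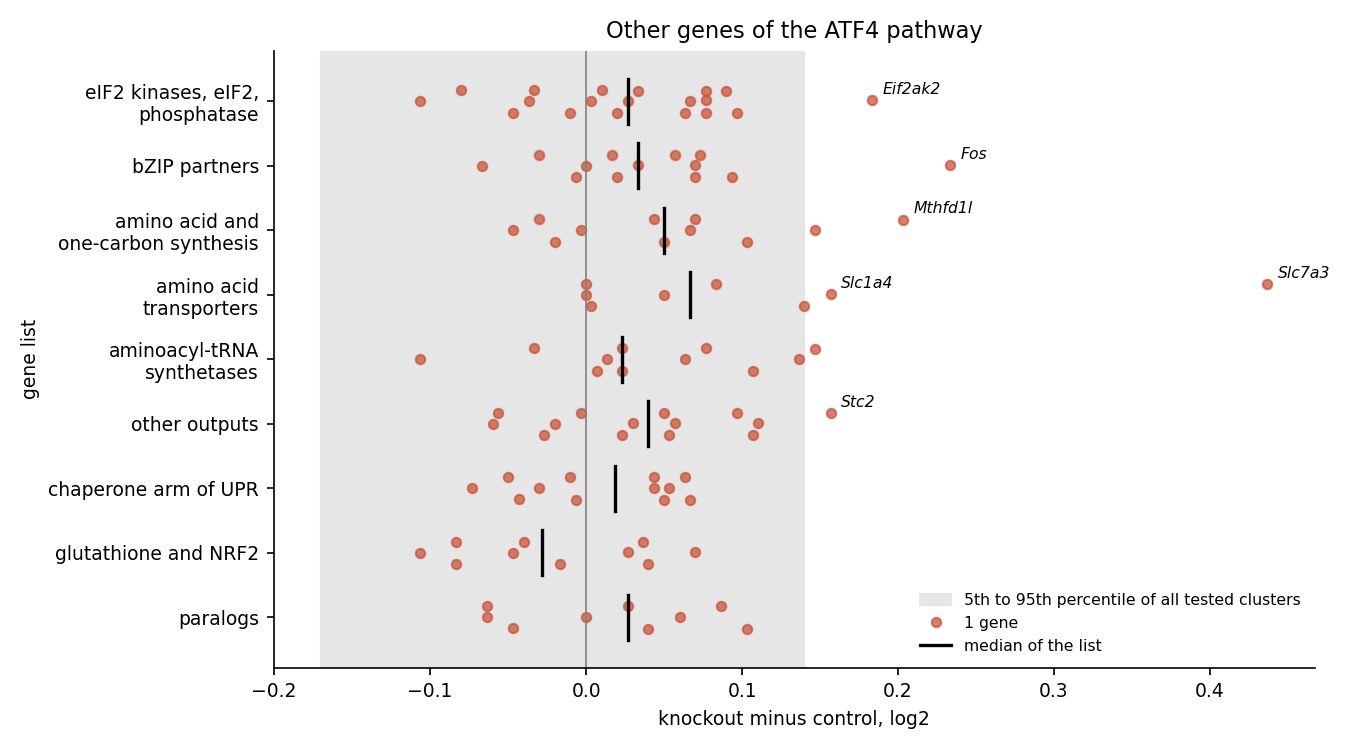
Knockout minus control difference on the log2 scale (horizontal axis) of each measured gene (points, 1 cluster per gene) in 9 lists of pathway genes and relatives (vertical axis), with the list median as a black line. The grey band runs from -0.17 to 0.14, the 5th to 95th percentile of all tested clusters, and most points lie inside it, with Slc7a3 farthest to the right at 0.44.

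The clusters most like Atf4 over the 6 arrays, by the mean absolute difference of values centred on each cluster's own mean, were Tes3-ps (0.022), Sult2a8 (0.024) and Snora33 (0.024). Those most like Chac1 were Olfr1471 (0.030), Barhl2 (0.041) and Adh1 (0.043). In Barhl2, Adh1 and Olfr1471 all knockout values lay above all control values, with differences of 0.39, 0.35 and 0.32 and adjusted p-values up to 0.279. These clusters were picked for values close to those of Chac1 in the same 6 arrays, so this follows from how they were picked. Control means were 4.23 for Olfr1471, 3.79 for Sult2a8 and 5.83 for Tes3-ps, below the array medians of 8.075 to 8.1. Whether such low values reflect background signal was not tested. None of the other 9 genes or of the pathway lists was among the 3 closest to Atf4 or to Chac1.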

How the data were processed

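The authors deposited 1 log2 value per transcript cluster and array. Per the submitters' processing notes they used RMA in Affymetrix Expression Console; of versions and annotation, nothing is given in the sources used here. RMA gives all arrays 1 distribution, so a shift of all transcripts together is not seen. The deposited log2 values had 2 decimals and array medians of 8.075 to 8.1. Detection calls and scan dates were not used here, and the number of arrays limits the precision. Of 35556 rows, the 21789 with 1 symbol in the platform annotation were tested in limma 3.58.1 (R 4.3.3; lmFit, eBayes, no covariates) with Benjamini-Hochberg adjustment, checked on simulated data. The genes, lists and rule for named genes (in each list, those past the threshold, the 3 with the smallest p, the eIF2 kinases and direct relatives) were chosen with earlier results of these data known. Genes in lists were matched by symbol or synonym (assembly GRCm38.p6), 107 of 112, with the cluster of highest mean representing a gene. The markers of spermatogonia, peritubular myoid, endothelial and red blood cells had medians of -0.10, -0.01, 0.01 and 0.20 over 16, 7, 8 and 2 genes, and those of the epididymis -0.31 over 5. Alternatives were a replicate block, a trended robust prior, median-centred arrays, no dim clusters, all rows, 1 cluster per gene, treat at 1.2-fold, each array left out, and other motif lengths. The targeted gene is not reported here.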

Additional observations from a re-analysis of the deposited data

How the results depend on the processing

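Of the 10 ATF4 genes, 0 passed the adjusted threshold in limma under any of the 13 alternatives. The lowest adjusted p-values were 0.0871 for Chac1, with a trended robust prior, and 0.162 for Atf4, without control replicate 1. Over all clusters the count of 3 was 0 with the replicate block, with all rows tested and with treat at 1.2-fold, 7 with the trended robust prior, and 0 to 52 with 1 array left out, 52 without control replicate 1. With the replicate block the adjusted p was 0.263 for Chac1 and 0.313 for Atf4. Deviations from the group means in arrays of the same number correlated at 0.17, -0.05 and 0.17, against -0.23 to 0.08 in arrays of different number. The labels state no pairing, and in the main fit the numbers were not taken as pairs. With treat, 1 of the 10 genes was higher at an unadjusted p under 0.05 (Chac1), against 0.0688% of all clusters. With 1 array left out 2 to 4 were higher, against 2.81% to 5.01% of all clusters. In the same fits 0 to 1 were lower (Slc7a11, without knockout replicate 3), against 4.41% to 6.15%. Separate groups on the higher side were then found in 3 to 6 of the 10 genes, against 10.5% to 13.1% of all clusters. With 1 array left out the difference ran from -0.05 to 0.03 in Trib3 and from -0.0167 (without knockout replicate 2) to 0.13 in Phgdh, both changing sign. Differences of the other 8 genes kept their sign in all 13 alternatives. With the longer motif 0 of the 10 genes matched, since it asks for 1 more letter, and with the core motif TGATG 3 did, against 38% of all genes.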
